A study of Homo sapiens with 6 samples.

Results

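Selenoprotein P (SELENOP) and CCDC152, a coiled-coil gene on the other strand of SELENOP, were followed through a knockdown of YAP and TAZ. With them were the glutathione peroxidases GPX1, GPX2, GPX3, GPX4 and GPX8 and the selenoprotein genes SEPHS2 and SELENOW. These 9 genes were selected by their symbols, with SELENOP included because its counts were higher after the knockdown, out of 23459 genes in the count table. All 9 were found in the table, and 8 of them passed the filter on low counts. All 6 libraries, labelled WT, were 3′ mRNA-Seq (QuantSeq, one read near the 3′ end of a transcript) of MCF10A, a human line of mammary epithelial cells that are not transformed. The siCtrl group was 3 libraries from cells given a non-targeting siRNA, and the siYAP/TAZ group was 3 libraries from cells given siRNA against both coactivators, in each case at 20 nM. YAP and TAZ, the latter encoded by WWTR1, are the transcriptional coactivators at the end of the Hippo pathway.

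Selenoproteins carry selenocysteine, an amino acid encoded by a UGA codon that would otherwise end translation, and reading it needs a hairpin in the transcript and its own tRNA, binding protein and elongation factor. SELENOP is a secreted protein that holds many selenocysteines and delivers selenium from the liver to other tissues, where receptors of the LDL receptor family take it up. Glutathione peroxidases reduce peroxides with glutathione. GPX4 is the member that reduces lipid peroxides within membranes and so restrains ferroptosis, an iron-dependent cell death.

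The coding windows show what the members share and where they differ, so the stretch around the catalytic codon is given for the 5 peroxidases, in GRCh37, with the selenocysteine codon or its counterpart in capitals.
GPX1 (codon 49 of 203, chr3:49395565-49395567, minus strand): gtggcgtccctcTGAggcaccacggtccgg
GPX2 (codon 40 of 190, chr14:65409325-65409327, minus strand): gtggcttcgctcTGAggcacaaccacccgg
GPX3 (codon 73 of 226, chr5:150405030-150405032, plus strand): gtggccagctacTGAggcctgacgggccag
GPX4 (codon 73 of 197, chr19:1105402-1105404, plus strand): gtggcctcccagTGAggcaagaccgaagta
GPX8 (codon 79 of 209, chr5:54456852-54456854, plus strand): gtggccagtgacTGCcaactcacagacaga
GPX8 has the cysteine codon TGC where the other 4 have TGA, and was the only one of these 5 without an annotated selenocysteine. Across pairs of the 5 proteins, identity over aligned residues ran from 33.7% (GPX3 and GPX8) to 67.4% (GPX1 and GPX2). SEPHS2, which makes the activated selenium used for selenocysteine and is itself a selenoprotein, has its codon at position 60 of 448. SELENOW, a small thioredoxin-like selenoprotein, has it at position 13 of 87.

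SELENOP has 10 such codons, and 3 of them are shown to set the single N-terminal codon beside the C-terminal run.
SELENOP (codon 59 of 381, chr5:42808279-42808281, minus strand): cttcaagccagcTGAtacctgtgcatactg
SELENOP (codon 300 of 381, chr5:42801068-42801070, minus strand): gctcctaggagcTGAtgctgccattgtcga
SELENOP (codon 376 of 381, chr5:42800840-42800842, minus strand): caggcaaaaaagTGAgaatgaccttcaaac
The 9 C-terminal codons, from codon 300 on, lie in the last exon of SELENOP. That whole exon of 1452 bases is covered by the last exon of CCDC152, which reads the opposite way. The gene models share chr5:42799982-42802541 (2560 bases), and the last 500 bases of the SELENOP transcript, where 3′ reads fall, are all inside it. The last 500 bases of the CCDC152 transcript are inside it too, but lie in a SELENOP intron. CCDC152 ends 2559 bases from the SELENOP 3′ end, and the last SELENOP exon reaches only to 1451. By the annotation used here SELENOP spans chr5:42799982-42887494 on the minus strand and CCDC152 spans chr5:42756920-42802541 on the plus strand.

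**Figure D1:**
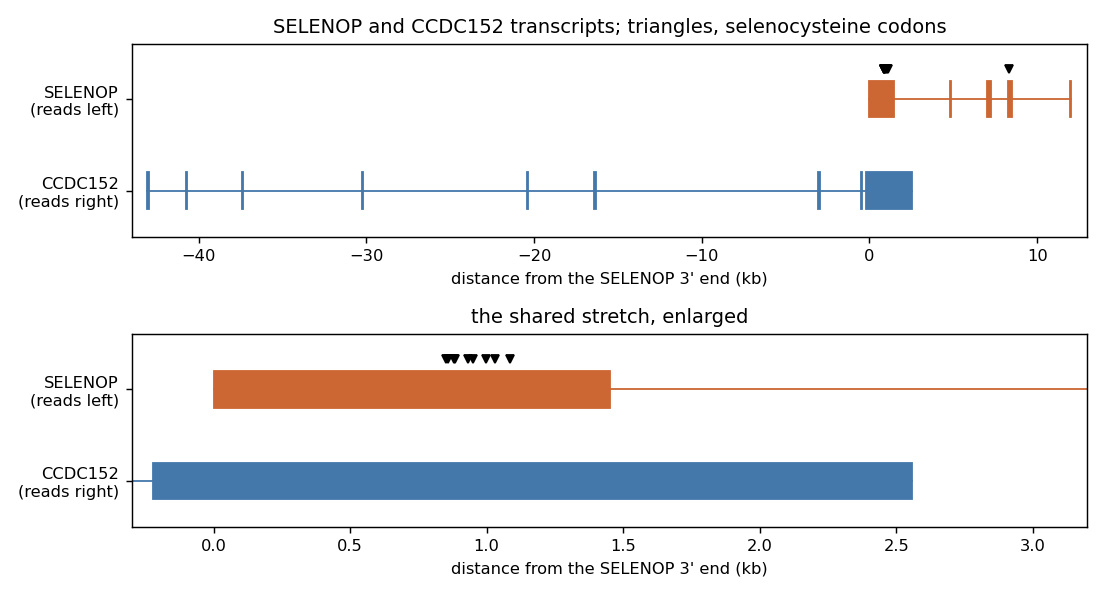
Exons (boxes) of the SELENOP and CCDC152 transcripts by distance from the SELENOP 3′ end in kb, whole (upper panel) and enlarged (lower panel), with SELENOP selenocysteine codons as triangles. The last SELENOP exon lies within the last CCDC152 exon, and 9 of the 10 codons fall in the shared stretch.

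Library totals ran from 3175149 to 4317286 counts, so that 3 counts, taken here as the floor, corresponded to 0.677 to 0.987 CPM (counts scaled to library size, with factors from the trimmed mean of M values). GEO's title and genotype field opposed the description field, which names the columns, for siCtrl replicate 2 and siYAP/TAZ replicate 2, and groups were taken from the description. The design text of the series is about activation of JUN rather than siRNA, and the labels of the samples were followed. YAP1 stood at 188, 203 and 209 CPM over siCtrl and 116, 117 and 111 CPM in siYAP/TAZ, and WWTR1 at 108, 108 and 101 CPM against 70.2, 66.8 and 59.6 CPM. Both were lower without overlap between the groups (log2 fold change −0.80, SE 0.118, adjusted p = 0.0138 for YAP1, and −0.69, SE 0.129, adjusted p = 0.0311 for WWTR1, edgeR, quasi-likelihood, Benjamini-Hochberg over all genes tested), so these levels went with the description and against the titles. On the first principal component of log2 CPM (48.4% of the variance) siCtrl replicate 2 stood at 7.15, apart from the other siCtrl libraries at −42.6 and −34.9 and near the siYAP/TAZ libraries at 9.77 to 33.7. The YAP1 call was lost without siCtrl replicate 3 and without replicate 2 or 3 of siYAP/TAZ (adjusted p 0.00343 to 0.112 over the 6 fits that leave out 1 library). The WWTR1 call held only without siCtrl replicate 2 (0.0111 to 0.176). Of 7 basal epithelial markers all were counted in every library. Their summed level was 1580 to 1933 CPM over siCtrl and 1332 to 1512 CPM in siYAP/TAZ. KRT5, KRT14, KRT17, EPCAM and ITGA6 were lower (log2 fold change −0.47, −0.26, −0.53, −0.49 and −0.38). TP63 and CDH1 were higher (0.58 and 0.25). All 5 hepatocyte markers were at 3 counts or fewer in every library (summed level 0 to 0.858 CPM in siCtrl and 0 to 0.541 CPM in siYAP/TAZ), and APOA2 and TTR were at 0 in all 6. The endothelial markers summed to 2.001 to 3.38 CPM over siCtrl and 4.74 to 11.2 CPM in siYAP/TAZ, with PECAM1 at 6, 4 and 4 counts against 14, 29 and 18 (log2 fold change 2.10), VWF at 4 to 6 counts and CDH5 at 0 to 2 counts. The macrophage markers summed to 207 to 267 CPM and 243 to 292 CPM, nearly all from CSF1R (log2 fold change 0.25). CD14 was at 15, 23 and 17 counts against 19, 15 and 9 (log2 fold change −0.41). PTPRC was at 2, 10 and 3 counts against 2, 8 and 3, and CD163 at 0 or 1 count. The 4 fibroblast markers summed to 1.14 to 3.25 CPM and 0.987 to 3.79 CPM, and COL1A2 and THY1 were at 0 in all 6 libraries. The part of these markers in the values below was not tested. In bulk RNA, fewer cells of a type and less RNA per cell cannot be told apart.

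SELENOP was counted 4, 8 and 6 times in siCtrl and 47, 19 and 42 times in siYAP/TAZ. In CPM this was 1.14, 2.46 and 1.501 against 10.6, 6.25 and 11.4, a mean of 1.70 ± 0.679 (SD, n = 3) against 9.41 ± 2.76 (SD, n = 3). The groups did not overlap, and the library nearest to the other group was replicate 2 on both sides, the pair whose titles are opposed. The fitted log2 fold change was 2.47 (SE 0.403), or 5.55-fold. Summed over libraries there were 18 counts in siCtrl and 108 in siYAP/TAZ, a depth-adjusted ratio of 5.78 with an exact 95% interval of 3.49 to 10.1 that covers counting error only. No siCtrl library and all 3 siYAP/TAZ libraries were above the filter's level of 2.82 CPM, so SELENOP entered the fit through the siYAP/TAZ group alone. SELENOP was selected on this difference, so no p is given for it or for any other member.

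The SELENOP value kept its direction over these choices and moved beyond the spread between replicates with both opposed libraries left out and with groups by title. The log2 fold change was 2.81 (SE 0.465) without siCtrl replicate 2 and 3.02 (SE 0.432) without both libraries with opposed titles. With groups taken from the titles it was 1.52 (SE 0.716). Leaving out each of the 6 libraries in turn gave 2.27 to 2.81.

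CCDC152 was counted 2, 7 and 3 times in siCtrl and 36, 17 and 40 times in siYAP/TAZ. Its level was 0.572, 2.15 and 0.750 CPM against 8.12, 5.59 and 10.8 CPM, and again the groups did not overlap. The log2 fold change was 2.84 (SE 0.495), and the summed counts of 12 and 93 gave a ratio of 7.46 with a counting interval of 4.08 to 14.96. Without siCtrl replicate 2 the log2 fold change was 3.57 (SE 0.546), and by title it was 1.69 (SE 0.826). CCDC152 also passed the filter through the siYAP/TAZ group alone.

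The counts of the pair followed each other closely. CCDC152 was at or below SELENOP in 6 of 6 libraries, and the difference was 2, 1 and 3 counts in siCtrl and 11, 2 and 2 counts in siYAP/TAZ. QuantSeq FWD reads have the sense of the transcript, but whether the counting used strand is not given in the sources used here. A second member showed the same kind of pairing. GPX8 (chr5:54455995-54463125, plus strand) lies within CDC20B (chr5:54408799-54469005) on the opposite strand, and no GPX8 exon overlaps a CDC20B exon. CDC20B was counted 170, 101 and 153 times in siCtrl and 130, 69 and 113 times in siYAP/TAZ, which was 1 to 4 counts above GPX8 in each library. Over the annotation, of 277 genes nested in a gene of the other strand and counted at least 20 times on average, 197 (71.1%) had a host count at or above their own in all 6 libraries. Equal counts, within 10% over the libraries together, were rarer. They were found in 26 of 797 nested pairs (3.26%) and in 136 of 1194 pairs that overlap tail to tail (11.4%). SELENOP and CCDC152 overlap tail to tail but were not equal by this measure. GPX8 and CDC20B, a nested pair, were equal by it. Over the tail-to-tail pairs the log2 counts had r = 0.12 (a description over pairs of genes). GPX2 lies within CHURC1 and CHURC1-FNTB, also on the other strand; CHURC1 was counted 380 to 632 times per library and GPX2 3 times at most. With strand use not given, the reads of SELENOP and CCDC152, and those of GPX8 and CDC20B, cannot be told apart in this table; whether the same reads were counted for both was not tested.

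**Figure D2:**
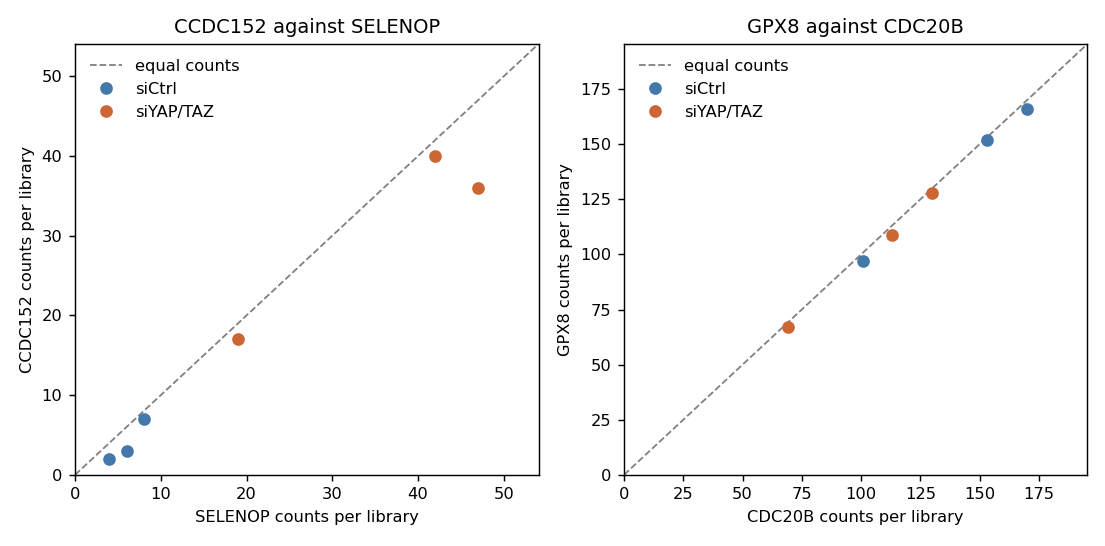
Counts per library of CCDC152 against SELENOP (left) and GPX8 against CDC20B (right), with 3 siCtrl and 3 siYAP/TAZ libraries as points and equal counts as a dashed line. All points lie 1 to 4 counts under the line except siYAP/TAZ replicate 1 on the left, which is 11 counts below it.

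GPX4 was the glutathione peroxidase with the largest positive difference. It was counted 66, 75 and 99 times in siCtrl and 160, 115 and 178 times in siYAP/TAZ, or 18.9, 23.0 and 24.8 CPM against 36.1, 37.8 and 48.2 CPM. All siYAP/TAZ libraries were above all siCtrl libraries. The means were 22.2 ± 3.03 and 40.7 ± 6.54 CPM (SD, n = 3 each), and the log2 fold change was 0.87 (SE 0.188), or 1.83-fold. It was 0.90 (SE 0.205) without siCtrl replicate 2 and 0.41 (SE 0.326) with groups by title.

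GPX8, an endoplasmic reticulum member of the family, stood on the other side. It was counted 166, 97 and 152 times in siCtrl and 128, 67 and 109 times in siYAP/TAZ, or 47.5, 29.8 and 38.0 CPM against 28.9, 22.0 and 29.5 CPM. The groups did not overlap, but the lowest siCtrl library, replicate 2, was only just above the highest siYAP/TAZ library. The log2 fold change was −0.51 (SE 0.210), and −0.66 (SE 0.189) without siCtrl replicate 2. CDC20B, whose counts shadow it, gave −0.51 (SE 0.207).

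The other peroxidases showed no such separation. GPX1, the abundant cytosolic enzyme, was at 91.5, 113 and 108 CPM over siCtrl and 92.5, 106 and 99.4 CPM in siYAP/TAZ, a log2 fold change of −0.07 (SE 0.135). GPX3, the secreted plasma enzyme, was at 12.9, 8.60 and 10.8 CPM against 8.57, 12.8 and 10.0 CPM, a log2 fold change of −0.05 (SE 0.269). In both genes the groups overlapped and the difference was smaller than its standard error. GPX2, the gastrointestinal enzyme, was at 2, 0 and 3 counts in siCtrl and 3, 0 and 3 counts in siYAP/TAZ, at or below the floor in every library. A count of 0 allows up to 0.922 CPM in siCtrl replicate 2 and 0.987 CPM in siYAP/TAZ replicate 2, so no difference was detectable for GPX2 at this depth.

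SEPHS2 was at 34.6, 20.3 and 24.8 CPM over siCtrl and 31.4, 28.0 and 30.6 CPM in siYAP/TAZ, a log2 fold change of 0.18 (SE 0.213). SELENOW was at 121, 87.6 and 107 CPM against 111, 91.5 and 90.2 CPM, a log2 fold change of −0.11 (SE 0.158). Both differences were smaller than their standard errors and the groups overlapped. The sign of GPX3, SEPHS2 and SELENOW was not stable over the alternatives, with log2 fold changes from −0.42 to 0.10, from −0.08 to 0.41 and from −0.22 to 0.01.

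**Figure D3:**
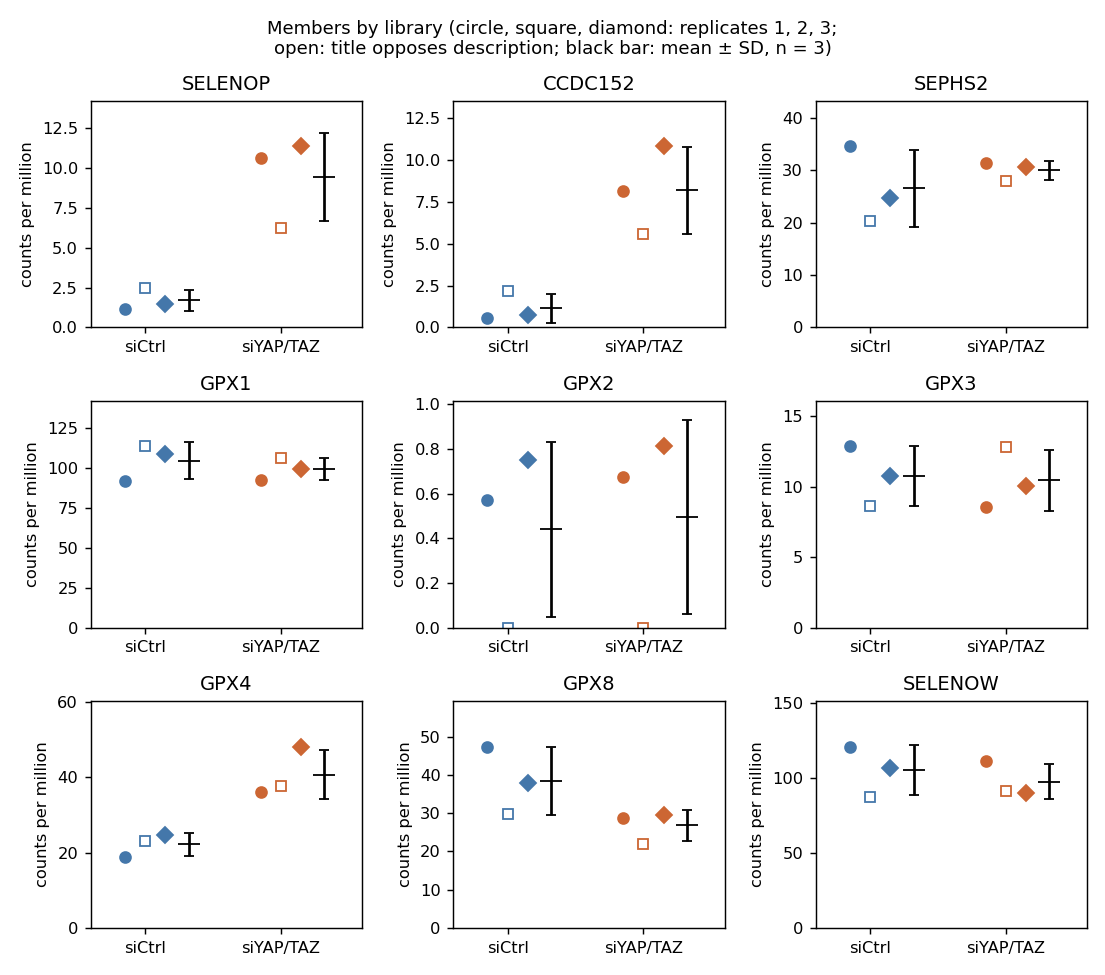
Level of the 9 members in CPM in each of the 6 libraries, with the mean ± SD of 3 libraries as a black bar and open squares for the libraries whose title opposes their description. SELENOP, CCDC152 and GPX4 were higher and GPX8 was lower in siYAP/TAZ without overlap, and the other 5 overlapped.

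Of the 8 members tested, 4 had groups that did not overlap, beside 22.1% of all 12510 genes tested. With all 6 libraries 2 members, SELENOP and CCDC152, were past an adjusted p of 0.05 in edgeR's fit, beside 1.96% of all genes. With the replicate number as a block, GPX4 was past it too (3 members, beside 10.1% of all genes). Without siCtrl replicate 2 the count was 4, with GPX4 and GPX8 added, beside 12.3% of all genes. The members were chosen with this contrast in view, and the reads of SELENOP and CCDC152 cannot be told apart, so nothing is read from these counts.

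**Figure D4:**
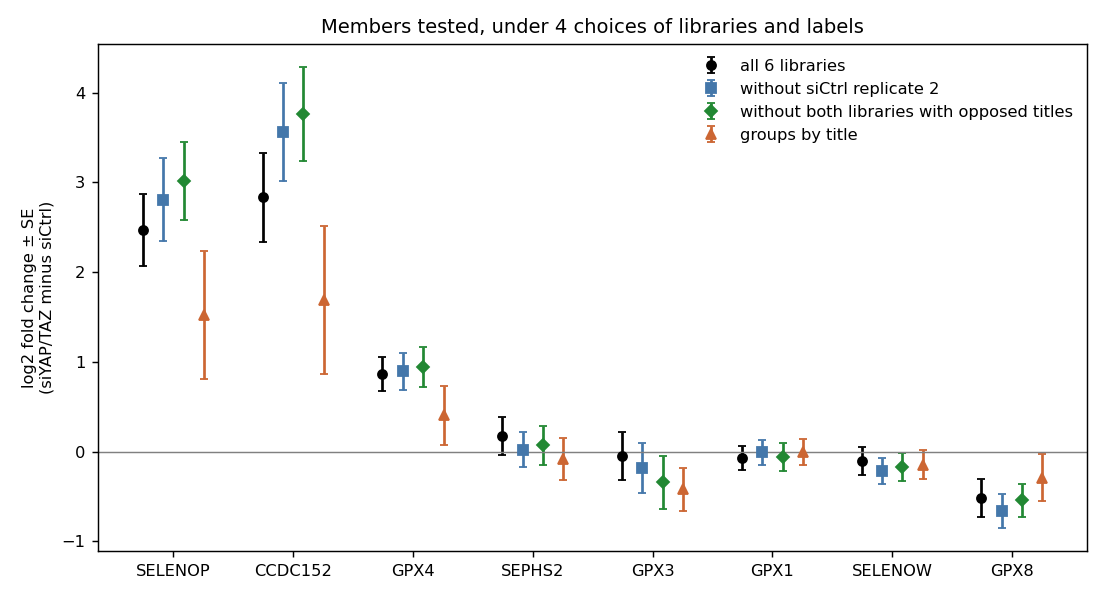
Log2 fold change ± SE of the 8 members tested (siYAP/TAZ minus siCtrl) with all 6 libraries, without siCtrl replicate 2, without both libraries with opposed titles, and with groups by title. SELENOP moved from 2.47 to 2.81, 3.02 and 1.52 in that order, and GPX1 stayed between −0.07 and −0.01.

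Over the 6 libraries, the genes whose log2 CPM was most like that of SELENOP were CYP4V2 (Pearson r = 0.997), FAM151A (0.994), CCDC152 (0.992), FRMD3 (0.989) and NFE2L1 (0.988). Among the members r with SELENOP was 0.94 for GPX4, 0.25 for SEPHS2, −0.21 for GPX1, −0.36 for GPX3, −0.40 for SELENOW and −0.73 for GPX8. These are descriptions over 6 points that share 1 difference between groups, in genes picked as the highest of 12510.

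The remaining selenoproteins were taken next, since they draw on the same selenium. Of 18 genes 13 were tested, and 0 were past the threshold in either direction with all libraries in edgeR's fit or in DESeq2. With the replicate block 2 were higher and 0 lower. Without the block, at an unadjusted p under 0.05, edgeR had 2 higher and 1 lower. Their median log2 fold change was 0.06, beside −0.00095 over all genes tested. For this list and the lists below, the shares of all genes called were 1.96% with all libraries in edgeR's fit and 4.73% in DESeq2. In edgeR they were 10.1% with the replicate block, 12.3% without siCtrl replicate 2 and 17.7% at an unadjusted p under 0.05. SELENOM, an endoplasmic reticulum selenoprotein, was at 5.15, 2.46 and 2.50 CPM over siCtrl and 8.80, 6.91 and 9.48 CPM in siYAP/TAZ (log2 fold change 1.32, SE 0.361, adjusted p = 0.0981, and 0.0357 with the replicate block). MSRB1, a selenium-containing methionine sulfoxide reductase, was at 18.6, 32.9 and 16.8 CPM against 37.2, 43.8 and 36.8 CPM (log2 fold change 0.79, SE 0.253, adjusted p = 0.149, 0.0189 with the block and 0.0040 without siCtrl replicate 2). SELENON, a calcium-handling selenoprotein, gave −1.08 (SE 0.399, adjusted p = 0.21). SELENOM and MSRB1 showed no overlap between the groups and SELENON did.

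The genes that make and insert selenocysteine or take up selenium gave 0 calls among 9 tested of 10, with all libraries, with the block and without siCtrl replicate 2, by edgeR's test, and 0 by DESeq2 or at an unadjusted p under 0.05. Their median log2 fold change was −0.15. LRP8, the receptor through which several tissues take up SELENOP, was at 101, 51.3 and 86.8 CPM over siCtrl and 83.0, 68.8 and 48.5 CPM in siYAP/TAZ, so the groups overlapped (log2 fold change −0.26, SE 0.265, adjusted p = 0.663). SEPHS1, the SEPHS2 paralog without selenocysteine, gave −0.37 (SE 0.222, adjusted p = 0.42), and SEPSECS, which completes selenocysteine on its tRNA, gave 0.36 (SE 0.314, adjusted p = 0.60). The peroxidases outside the members, GPX5, GPX6 and GPX7, had at most 1 count in any library.

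The glutathione genes were set beside the same shares of all genes. Of 13 tested genes of glutathione synthesis and recycling, 0 passed with all libraries in edgeR's fit, with the replicate block or in DESeq2. Without siCtrl replicate 2, 1 was higher in edgeR's fit. At an unadjusted p under 0.05 edgeR had 1 higher gene and 1 lower gene, and the median log2 fold change was −0.03. GCLC, the catalytic subunit of the first step, gave 0.54 (SE 0.279, adjusted p = 0.349), and GSS, the second step, gave −0.43 (SE 0.197, adjusted p = 0.294). Of 8 tested glutathione transferases, 1 rose, both with all libraries and with the replicate block. This was GSTA4, which conjugates the lipid peroxidation product 4-hydroxynonenal, at 6.29, 19.7 and 10.3 CPM over siCtrl and 38.8, 31.6 and 37.1 CPM in siYAP/TAZ (log2 fold change 1.58, SE 0.336, adjusted p = 0.0493, edgeR). GSTM4 gave 0.42 (adjusted p = 0.669), and the abundant GSTP1 and MGST1 gave 0.32 each (adjusted p = 0.315 and 0.473).

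Beyond glutathione, 15 of 16 genes of other peroxide and superoxide removal were tested and 0 passed with all libraries in edgeR's fit. With the replicate block 2 were higher and 1 lower. Without the block, at an unadjusted p under 0.05, there were 3 higher and 1 lower, and DESeq2 called CAT higher and MSRB3 lower. Catalase (CAT) was at 54.9, 41.8 and 42.8 CPM over siCtrl and 97.9, 63.2 and 87.7 CPM in siYAP/TAZ (log2 fold change 0.84, SE 0.193, adjusted p = 0.062, and 0.0041 with the replicate block). MSRB3, a reductase of the MSRB1 family that has cysteine in place of selenocysteine, gave −0.84 (SE 0.240, adjusted p = 0.109, and 0.00472 with the block). SOD2, the mitochondrial superoxide dismutase, stood at 709, 3536 and 1010 CPM over siCtrl and 2323, 5004 and 4624 CPM in siYAP/TAZ, so that siCtrl replicate 2 lay within the siYAP/TAZ range (adjusted p = 0.295, 0.00517 with the block and 0.00258 without siCtrl replicate 2).

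In the list on lipid peroxidation and iron, 6 of 8 genes were tested and 1 rose, or 3 with the replicate block. FTH1, the ferritin heavy chain that stores iron, was at 2274, 3046 and 1614 CPM over siCtrl and 5484, 5956 and 5865 CPM in siYAP/TAZ (log2 fold change 1.32, SE 0.234, adjusted p = 0.0265, edgeR). FTL, the light chain, gave 0.72 (SE 0.278, adjusted p = 0.226, and 0.0261 with the block), and TFRC, the transferrin receptor, gave 0.42 (SE 0.152, adjusted p = 0.196, and 0.0445 with the block). AIFM2, which reduces coenzyme Q against lipid peroxidation, gave −0.27 (SE 0.192, adjusted p = 0.497).

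Over all 8 lists, 67 of 82 genes were tested, 2 rose and 0 fell with all libraries in edgeR's fit, beside 1.96% of all genes called. DESeq2 called 4 higher and 1 lower, beside 4.73% of all genes, and at an unadjusted p under 0.05 edgeR had 11 higher and 3 lower, beside 17.7% of all genes. With the replicate block 10 rose and 1 fell, beside 10.1% of all genes, and without siCtrl replicate 2 it was 9 and 1, beside 12.3%. With 1 library left out, the GSTA4 call held only without siCtrl replicate 2 (adjusted p 0.00103 to 0.229 over the 6 fits), and the FTH1 call only without siCtrl replicate 2 or siYAP/TAZ replicate 1 (0.0013 to 0.145).

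**Figure D5:**
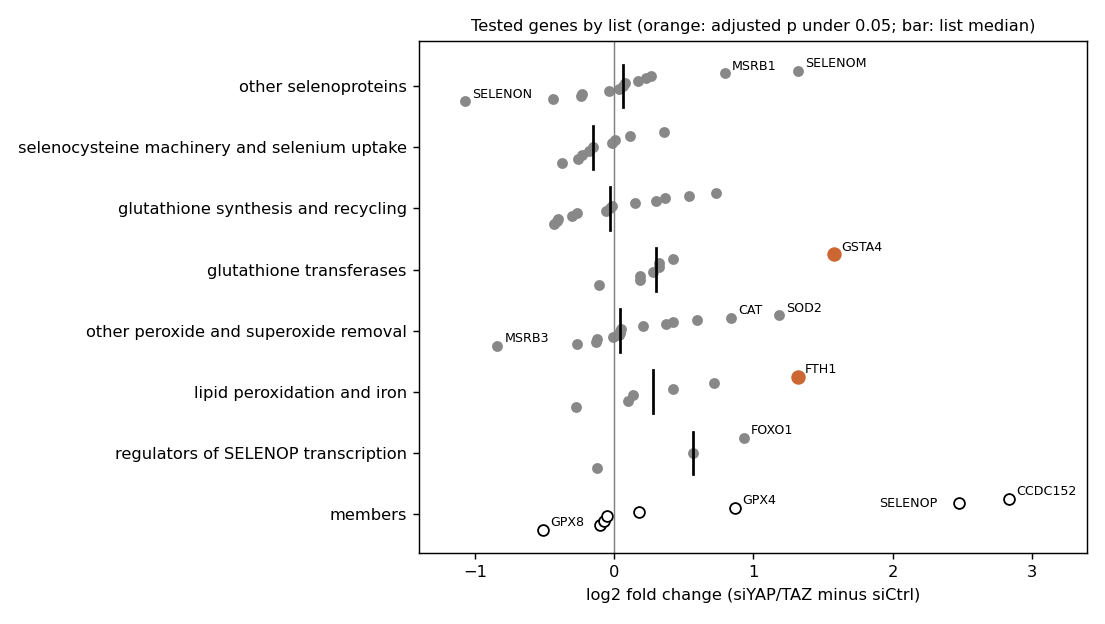
Log2 fold change (siYAP/TAZ minus siCtrl) of each tested gene by list, with the list median as a bar, genes past an adjusted p of 0.05 in orange and the 8 tested members as open circles. GSTA4 at 1.58 and FTH1 at 1.32 are the orange points. SELENOP and CCDC152 lie to the right of every listed gene. SELENOP was selected for its rise and both passed the filter through siYAP/TAZ alone, so nothing is read from this.

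The SELENOP promoter is known as a target of FOXO factors with HNF4A and PGC-1α (PPARGC1A) in liver, so its sequence and these regulators were examined. The 130 bases before the RefSeq start site are shown (RefSeq, GRCh38.p14, chr5:42811893-42812022, minus strand), with motif matches in capitals.
SELENOP promoter: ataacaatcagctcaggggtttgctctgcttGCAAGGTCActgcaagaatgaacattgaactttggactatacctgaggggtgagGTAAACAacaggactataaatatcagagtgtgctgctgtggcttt
Searched on both strands from 250 bases before to 50 after the start site, this promoter held 1 FOXO motif (GTAAACA), first base 45 upstream, and 1 antioxidant response element core (TGACNNNGC), here as its reverse complement 99 upstream, and these did not overlap. It held no TEAD motif (GGAATG) and no AP-1 motif (TGANTCA). The FOXO motif was in 3.42%, the antioxidant core in 13.3%, the TEAD motif in 14.0% and the AP-1 motif in 7.71% of 35116 promoters of the same length. Of the 11 promoters listed for the 9 members, only the SELENOP one held the FOXO motif. CCDC152 held 2 AP-1 motifs, 243 and 175 bases upstream, and GPX2 held 1 antioxidant core 122 upstream. A match of letters is a description and not a bound site, and a part of FOXO factors in the SELENOP values was not tested.

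FOXO1 was at 130, 317 and 170 CPM over siCtrl and 331, 406 and 439 CPM in siYAP/TAZ, above without overlap (log2 fold change 0.93, SE 0.289, adjusted p = 0.139, 0.00672 with the replicate block and 0.00142 without siCtrl replicate 2). FOXO3 was at 107, 235 and 145 CPM against 191, 272 and 256 CPM, with overlap through siCtrl replicate 2 (log2 fold change 0.57, SE 0.264, adjusted p = 0.303, 0.0196 with the block and 0.0109 without that library). In both genes siCtrl replicate 2 was the highest siCtrl library, as it was for SELENOP, CCDC152, GPX1, MSRB1, GSTA4, FTH1 and SOD2. That library was the lowest of siCtrl for GPX3, GPX8, SEPHS2, SELENOW, LRP8, SEPHS1, CAT, MSRB3 and TFRC. For GPX4 and FTL it was the middle one. PPARGC1A gave −0.12 (SE 0.394, adjusted p = 0.905), and HNF4A had 1 to 3 counts per library and was not tested. Of the 3 tested regulators, 0 passed in edgeR's fit with all libraries and 2 with the replicate block. Without the block FOXO1 alone had an unadjusted p under 0.05, and DESeq2 called FOXO1. The list was written with earlier results of these data known.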

How the data were processed

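The deposited file holds raw counts per Entrez gene for 6 libraries, made by the authors from QuantSeq 3′ mRNA-Seq FWD reads; the submitters' processing notes name cutadapt 4.2, Bowtie2 2.3.5.1 and hg19, and the study's methods name countOverlaps in R for RNA-Seq. The annotation and the use of strand are not given in the sources used here. Entrez IDs were matched to symbols for 23308 of 23459 genes (99.7% of counts). Genes at or above 2.82 CPM in at least 3 libraries were kept (12510 genes, 99.5% of counts) and tested with edgeR 4.0.16 (R 4.3.3; quasi-likelihood test, TMM scaling, Benjamini-Hochberg over all genes tested), with siYAP/TAZ against siCtrl as groups from the description field. CPM are counts divided by TMM-scaled totals; fold changes are edgeR's, with its prior count. Alternatives were DESeq2 1.42.0, other scalings and filters, the replicate number as a block, groups by title, and libraries left out. Same-numbered libraries deviated together (r = 0.416, 0.345 and 0.129 over genes), so the numbers of the description field were taken to pair the libraries. The fit with all libraries had group alone and left this pairing out. List counts with the replicate block are therefore given beside it. No label says that the libraries came from separate cultures, so p-values measure the spread between these libraries. Positions are from GENCODE (GRCh37), selenocysteine codons from its annotation, promoters from RefSeq (GRCh38.p14); identities are from pairwise global alignment.

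The members and lists were chosen with earlier results of these data known. Named were the 9 members, YAP1 and WWTR1, in each list the called genes and up to 3 more tested genes with the largest log2 fold change in size, genes overlapping a member, and the 5 genes most like SELENOP; other genes were named after their values were seen. One gene that the rule names is not reported here. The script was tested on simulated data.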

Additional observations from a re-analysis of the deposited data

How the results depend on the processing

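The log2 fold changes of SELENOP, CCDC152, GPX1, GPX4 and GPX8 kept their sign under every alternative run, and so did 24 of the 25 named pathway and targeted genes; GPX3, SEPHS2, SELENOW and PPARGC1A did not. Genes past the threshold numbered 245 with all libraries, 592 with DESeq2, 556 with no low-count filter, 1263 with the replicate block, 1183 without both libraries with opposed titles, 0 with groups by title in edgeR's fit (464 at an unadjusted p under 0.05), and 16 (without siCtrl replicate 3) to 1579 (without siCtrl replicate 2) when 1 library was left out. Members past it numbered 2, and 3 with DESeq2, with no low-count filter, with the replicate block and without both libraries with opposed titles. They numbered 0 with a mean of at least 50 counts, which removes SELENOP and CCDC152 from the fit. By title they numbered 0, and with 1 library left out 0 to 4. Pathway genes higher numbered 2, and 4 with DESeq2, 4 with no filter, 1 with the mean of at least 50 counts, 10 with the block, 8 without both libraries, 0 by title and 0 to 9 with 1 left out. Pathway genes lower numbered 0, and 1 with DESeq2, with no filter, with the block and without both libraries, and 0 to 1 with 1 left out. Other than for the removed genes the cause was not tested. Depth limits SELENOP and CCDC152, with 18 and 12 counts in all of siCtrl, and GPX2, with 5, could not be assessed.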
